A study of Homo sapiens with 7 samples.

Results

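The bone morphogenetic protein (BMP) receptor, SMAD and inhibitor of DNA binding (ID) genes were read in RNA-seq libraries of 501Mel, a human melanoma cell line. The genes were picked by symbol, namely ID1, ID2, ID3, ID4, SMAD1, SMAD5, SMAD6, BMPR1A, BMPR2 and BMP7. Of these 10 genes, 9 were read, in a table of 21305 genes, and all 9 lay over the minimum mean of 10 normalized counts, which 15420 genes passed. BMP7 was not analysed here. The 7 libraries fell into a control group whose hairpin matches lacZ, a gene of bacteria (shlacZ, n = 3) and groups with the hairpins sh4 (n = 2) and sh8 (n = 2), both directed at the long non-coding RNA GRASLND. A short hairpin RNA is processed by the cell into a small guide that lowers a matching transcript. All libraries, the controls included, came from cells with an integrated lentiviral hairpin that had been switched on with doxycycline, for 3 days according to the methods of the study. These were puromycin-selected pools of transduced cells, not single clones, and no untreated or hairpin-free cells were read here. The labels give sh4 and sh8 no target sequence. They also do not say whether replicates were separate cultures, so p-values measure the spread between these libraries, which may be technical.

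BMPs are secreted ligands that bring together a type II receptor such as BMPR2 and a type I receptor such as BMPR1A. The activated type I receptor phosphorylates SMAD1, SMAD5 and SMAD9, which join SMAD4 and act on genes in the nucleus. The ID genes are among the classical targets, and SMAD6, an inhibitory SMAD, is a target that acts back on the receptors. ID proteins lack a DNA-binding region of their own and pair with the E proteins TCF3, TCF4 and TCF12, which then no longer bind E-boxes with their usual partners. ID proteins are known for holding back differentiation in many lineages.

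The promoters of BMPR2, whose transcript rose with both hairpins, of ID1 and ID3, and of ID4 are shown because the transcript levels of these genes followed different patterns over the libraries. Each sequence is the 250 bases before the RefSeq start of the gene on GRCh38.p14, written 5′ to 3′ on the strand of the gene. Capitals mark GGCGCC, a GC-rich element described in BMP-responsive promoters, and CANNTG, the E-box to which E proteins bind.
BMPR2, chr2:202376077-202376326, plus strand: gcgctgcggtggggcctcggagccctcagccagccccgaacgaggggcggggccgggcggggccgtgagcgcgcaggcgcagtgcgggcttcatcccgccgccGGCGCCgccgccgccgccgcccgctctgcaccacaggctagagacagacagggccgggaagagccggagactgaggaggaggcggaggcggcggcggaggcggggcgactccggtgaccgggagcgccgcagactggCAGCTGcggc
ID1, chr20:31605039-31605288, plus strand: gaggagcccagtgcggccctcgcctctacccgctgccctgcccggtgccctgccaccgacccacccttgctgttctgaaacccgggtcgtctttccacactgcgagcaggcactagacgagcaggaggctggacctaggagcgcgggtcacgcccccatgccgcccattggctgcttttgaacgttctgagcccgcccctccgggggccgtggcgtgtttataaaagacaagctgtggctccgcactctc
ID3, chr1:23559502-23559751, minus strand: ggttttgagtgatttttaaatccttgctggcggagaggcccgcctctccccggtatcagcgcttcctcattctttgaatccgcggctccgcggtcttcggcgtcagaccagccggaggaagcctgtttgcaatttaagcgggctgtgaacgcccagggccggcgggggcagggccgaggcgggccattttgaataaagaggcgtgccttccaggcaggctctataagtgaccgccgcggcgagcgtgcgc
ID4, chr6:19837120-19837369, plus strand: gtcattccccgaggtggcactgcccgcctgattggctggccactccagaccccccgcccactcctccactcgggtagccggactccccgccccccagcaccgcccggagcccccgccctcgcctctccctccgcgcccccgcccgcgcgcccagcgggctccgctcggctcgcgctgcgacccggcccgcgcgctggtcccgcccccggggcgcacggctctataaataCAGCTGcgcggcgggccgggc
The BMPR2 window held 1 GGCGCC, 147 bases before the start, and 1 CANNTG, 10 bases before it. The ID4 window held 1 CANNTG, 21 bases before its start, and no GGCGCC. Neither motif was in the ID1 and ID3 windows, which says only that these letters are not in 250 bases. Both motifs read the same on the other strand. Over 13 windows of the 9 genes (SMAD1 has several starts), 2 genes had a GGCGCC, BMPR2 and SMAD1, and 6 had a CANNTG. Of 35116 RefSeq windows of the same length, 16.4% held GGCGCC and 61.8% held CANNTG. The short SMAD motif CAGAC, searched on both strands, was in windows of 4 of the 9 genes (BMPR2, SMAD1, ID3 and ID4) and in 38.0% of all windows. G and C made up 79.2% of the BMPR2 window, 78.8% of the ID4 window, 66.0% of the ID1 window and 62.0% of the ID3 window.

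Reads recovered from the normalized counts and summed over the genes read ranged from 13337317 to 22855232 per library. This is a part of the sequenced reads, for which the paper gives a larger figure. The targeted RNA GRASLND stood at 309, 330 and 290 normalized counts in the shlacZ libraries, 175 and 131 under sh4, and 227 and 163 under sh8. Its fall passed the test for both hairpins pooled (log2 fold change -0.85, limma adjusted p = 0.0402) and for sh4 (-1.02, adjusted p = 0.00662). For sh8 the difference was -0.68 (adjusted p = 0.110), and an exact two-sided permutation test of pooled knockdown gave p = 0.0571, where the smallest possible value is 0.0286. Without any of the shlacZ replicates, either sh4 replicate or sh8 replicate 2, the pooled adjusted p lay above 0.05, at up to 0.182, and without sh4 replicate 2 that of sh4 was 0.0772. Among the controls, shlacZ replicate 1 stood apart, at a chi-square of 31.67 and 30.81 (mean over genes) from the other shlacZ libraries, which lay 9.47 from each other. The sh4 replicates lay 21.08 from each other and the sh8 replicates 17.98. All 8 melanocytic markers were present, and their summed level was 135855 to 146631 in shlacZ, 52282 to 60068 in sh4 and 101817 to 104837 in sh8. With sh4, 6 of the 8 passed the test as lower, beside 11.9% of all genes, and none as higher, beside 10.5%. With sh8 none of the 8 passed, beside 2.92% of all genes. In pooled knockdown 1 passed, PMEL, which fell, beside 4.61% of all genes. Of 16 markers of fibroblasts, keratinocytes, endothelial and immune cells, 3 had a value. COL1A1, of fibroblasts, lay between 5.24 and 16.4 normalized counts in all libraries, KRT10, of keratinocytes, between 133 and 206, and CD68, of immune cells, between 441 and 675, with no order by group. The part of these shifts in the results on BMP and ID genes was not tested.

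The clearest change was in the receptors. BMPR2, the type II receptor, rose with each hairpin, whereas BMPR1A, the type I receptor, showed differences smaller than its spread. BMPR2 (ENSG00000204217, chromosome 2, 202376327 to 202567751, plus strand, hg38) stood at 4569, 6208 and 6456 normalized counts in shlacZ. It stood at 9218 and 10950 under sh4, and at 13761 and 14442 under sh8. The knockdown libraries therefore all lay above the controls, and both sh8 libraries lay above both sh4 libraries. The means were 5744 ± 1025 (SD, n = 3), 10084 ± 1225 (SD, n = 2) and 14102 ± 481.5 (SD, n = 2). Relative to shlacZ the ratio of means was 1.76 for sh4 and 2.45 for sh8. On the scale of log2(normalized count + 1) used for all tests, the rise was 1.07 ± 0.19 (SE) for pooled knockdown (limma adjusted p = 0.0182), 0.82 ± 0.16 for sh4 (adjusted p = 0.00576) and 1.31 ± 0.16 for sh8 (adjusted p = 0.00328). In bulk RNA a higher level per cell and a higher share of cells with the transcript cannot be told apart. The sh4 and sh8 comparisons share the 3 shlacZ libraries and are not independent. BMPR2 no longer passed in pooled knockdown without shlacZ replicate 2 (1.13, adjusted p = 0.0791) or without shlacZ replicate 3 (1.16, adjusted p = 0.0552), nor for sh4 without sh4 replicate 2 (0.70, adjusted p = 0.0694), nor for sh8 without sh8 replicate 2 (1.28, adjusted p = 0.0602). Without limma's variance trend it did not pass in pooled knockdown (adjusted p = 0.0607) or for sh8 (0.0622).

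BMPR1A (ENSG00000107779, chromosome 10, 86756596 to 86932825, plus strand) stood at 960, 1150.1 and 1295 normalized counts in shlacZ, at 1126 and 1331 under sh4, and at 1136 and 1329.6 under sh8. The groups overlapped, and the replicate spread within each was wider than the distance between their means of 1135 ± 168, 1229 ± 145 and 1233 ± 137 (SD). The log2 fold change in pooled knockdown was 0.12, with a 95% interval from -0.18 to 0.43 (adjusted p = 0.617). The interval for sh4 ran from -0.23 to 0.47 and that for sh8 from -0.22 to 0.47. Divided by exon length, BMPR2 exceeded BMPR1A in every library, by 3.84, 4.35 and 4.02 times in shlacZ, by 6.60 and 6.63 times in sh4, and by 9.76 and 8.75 times in sh8. This ratio within a library does not depend on the scaling between libraries, and its values did not overlap between the 3 groups.

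**Figure D1:**
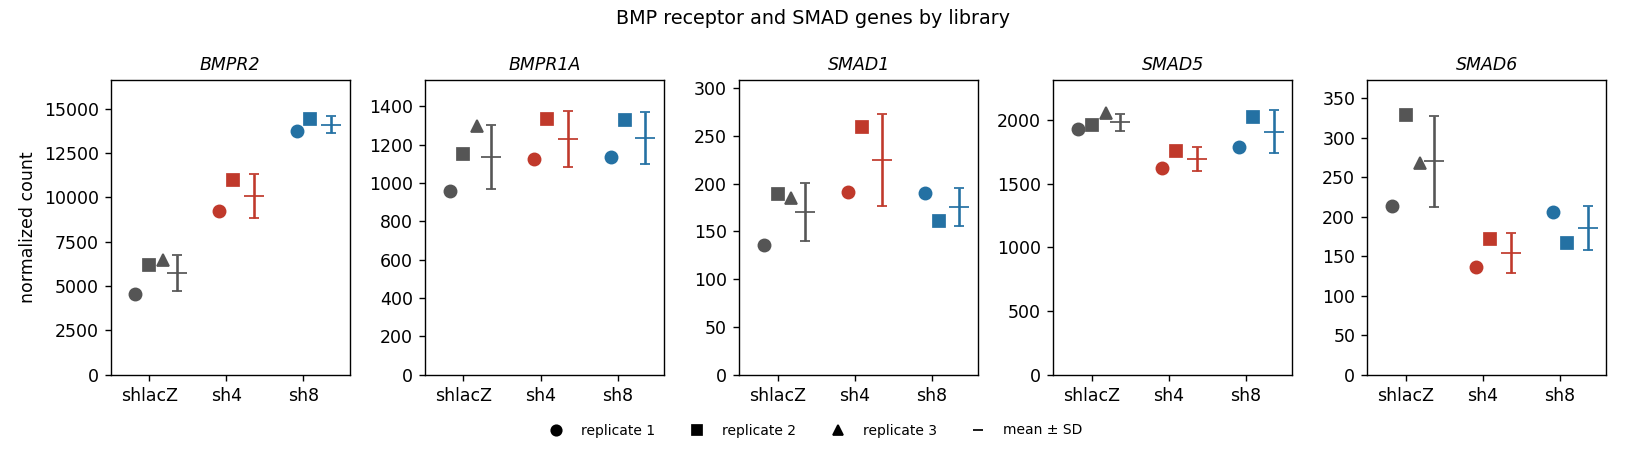
Normalized counts of the receptor and SMAD genes in each library, with the group mean and SD beside the points. The y axes start at 0 and differ between genes. BMPR2 lies between 4569 and 6456 in shlacZ and between 9218 and 14442 in the knockdown libraries, while BMPR1A overlaps in all groups.

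Among the SMADs, the inhibitory SMAD6 fell with sh4, and the receptor-activated SMAD1 and SMAD5 did not pass the test in any comparison. SMAD6 (ENSG00000137834, chromosome 15, 66702236 to 66782849, plus strand) stood at 214, 329 and 268 normalized counts in shlacZ, 137 and 172 under sh4, and 206 and 167 under sh8. All knockdown libraries lay below all controls, although shlacZ replicate 1 and sh8 replicate 1 were close. The group means were 270.2 ± 57.7 (SD, n = 3), 155 ± 25.3 (SD, n = 2) and 186 ± 27.6 (SD, n = 2). For sh4 the log2 fold change was -0.79 ± 0.22 (SE, limma adjusted p = 0.0301). For sh8 it was -0.52 (95% interval -1.02 to -0.02, adjusted p = 0.248) and for pooled knockdown -0.66 (adjusted p = 0.0879, and 0.0398 as the mean of both hairpins in the fit with 3 groups). The fall with sh4 no longer passed without shlacZ replicate 2 (-0.64, adjusted p = 0.101), shlacZ replicate 3 (-0.78, adjusted p = 0.0741), sh4 replicate 1 (-0.62, adjusted p = 0.217) or sh4 replicate 2 (-0.96, adjusted p = 0.0746), nor without the variance trend (0.0614).

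SMAD1 (ENSG00000170365, chromosome 4, 145481194 to 145559176, plus strand) stood at 135, 189.6 and 185 normalized counts in shlacZ, 190.9 and 259 under sh4, and 189.8 and 161 under sh8. Both sh4 libraries lay above the controls, the lower of them only just, and sh8 overlapped the controls. The log2 fold change was 0.40 for sh4 (95% interval -0.09 to 0.90, adjusted p = 0.226) and 0.06 for sh8 (-0.44 to 0.55). SMAD5 (ENSG00000113658, chromosome 5, 136132845 to 136188747, plus strand) was the steadiest of the 9 genes among the controls, at 1925, 1963 and 2051 normalized counts. It stood at 1623 and 1759 under sh4, both below the controls, and at 1786 and 2026 under sh8, which overlapped them. Its log2 fold change was -0.23 for sh4 (95% interval -0.48 to 0.03, adjusted p = 0.184) and -0.06 for sh8 (-0.31 to 0.20). Per exon length, SMAD6 stood above SMAD1 in the shlacZ libraries, by 1.31, 1.44 and 1.20 times, and below it in the knockdown libraries, at ratios of 0.594 and 0.552 in sh4 and 0.898 and 0.857 in sh8. Per exon length, the order of SMAD6 and SMAD1 thus differed between the controls and all 4 knockdown libraries, whereas SMAD5 stood above SMAD6 in every library. In normalized counts not divided by length, SMAD6 stayed above SMAD1 under sh8 (206 against 189.8 and 167 against 161), as in the controls. The changed order under sh8 therefore rests on the exon lengths used.

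The ID genes split into ID1, ID2 and ID3, whose means were lowest in sh8, and ID4, whose values were higher in all knockdown libraries than in the controls. None of the 4 passed limma's adjusted test in any of the 4 comparisons. At an unadjusted p under 0.05 there was 1 of 4 in pooled knockdown (ID4), 1 for sh4 (ID4), 4 for sh8 and 1 for sh4 against sh8 (ID2). Many of the 15420 genes reached this cut. By limma's unadjusted p, BMP6 at 0.0487 ranked 3667 in pooled knockdown and S100B at 0.0323 ranked 4888 for sh4. SMAD6 at 0.0416 ranked 2584 for sh8, and SMURF2 at 0.0442 ranked 3279 for sh4 against sh8. With limma-voom on the recovered reads, ID4 passed for sh4 (0.70, adjusted p = 0.0393) and the others passed in no comparison. ID4 for sh4 also passed with a minimum mean of 50 (adjusted p = 0.0470), quantile normalization (0.0497) or scaling to total reads (0.0237), and in pooled knockdown as the mean of both hairpins in the fit with 3 groups (0.0390).

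ID1 (ENSG00000125968, chromosome 20, 31605283 to 31606515, plus strand) stood at 75.3, 212 and 162 normalized counts in shlacZ. It stood at 114 and 106 under sh4, and at 93.6 and 40.0 under sh8. The controls spanned 2.81 times, and the knockdown libraries overlapped them only through shlacZ replicate 1. The log2 fold change was -0.32 for sh4 (95% interval -1.31 to 0.68, adjusted p = 0.657) and -1.15 for sh8 (-2.14 to -0.16, adjusted p = 0.205). Without shlacZ replicate 1 the difference for sh8 was -1.58 and passed the test (adjusted p = 0.0215). The sh8 libraries were far apart, at -0.55 (replicate 1) and -1.75 (replicate 2) on the log2 scale centred on the control mean. On this scale shlacZ replicate 1 stood at -0.86. The size of the ID1 difference for sh8 thus leaned on sh8 replicate 2.

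ID3 (ENSG00000117318, chromosome 1, 23557926 to 23559501, minus strand) was the most abundant ID gene. Its normalized counts were 679, 1675 and 1632 in shlacZ, 983 and 1360 under sh4, and 828 and 580 under sh8. As for ID1, the groups overlapped only through shlacZ replicate 1, which lay between the sh8 libraries, and the controls spanned 2.47 times. For sh8 the log2 fold change was -0.83 (95% interval -1.61 to -0.04, adjusted p = 0.248), and without shlacZ replicate 1 it was -1.25 (adjusted p = 0.00501). For sh4 it was -0.09 (-0.88 to 0.70), and 0.01 when libraries were scaled to their total reads.

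ID2 (ENSG00000115738, chromosome 2, 8678845 to 8684461, plus strand) stood at 251, 451 and 288 normalized counts in shlacZ, 298 and 367 under sh4, and 232 and 81.0 under sh8. Under sh4 the values lay within the control range. Both sh8 libraries were below the controls, replicate 1 narrowly and replicate 2 by far. For sh8 the log2 fold change was -1.21 (95% interval -2.09 to -0.34, adjusted p = 0.134). It was -0.46 without sh8 replicate 2 and -1.97 (adjusted p = 0.0406) without sh8 replicate 1, so its size rested on 1 library.

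ID4 (ENSG00000172201, chromosome 6, 19837370 to 19842197, plus strand) ran the other way, at 181, 295 and 194 normalized counts in shlacZ, 326 and 375 under sh4, and 370 and 311 under sh8. No knockdown library overlapped the controls. The ratio of means to shlacZ was 1.57 for sh4 and 1.53 for sh8. The log2 fold change was 0.66 for pooled knockdown (95% interval 0.23 to 1.08, adjusted p = 0.0767), 0.68 for sh4 (0.18 to 1.18, adjusted p = 0.0530) and 0.64 for sh8 (0.14 to 1.13, adjusted p = 0.166). Without shlacZ replicate 2, the highest control, the difference for sh4 was 0.90 and passed (adjusted p = 0.0148), and without shlacZ replicate 1 it was 0.55 (adjusted p = 0.0729).

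**Figure D2:**
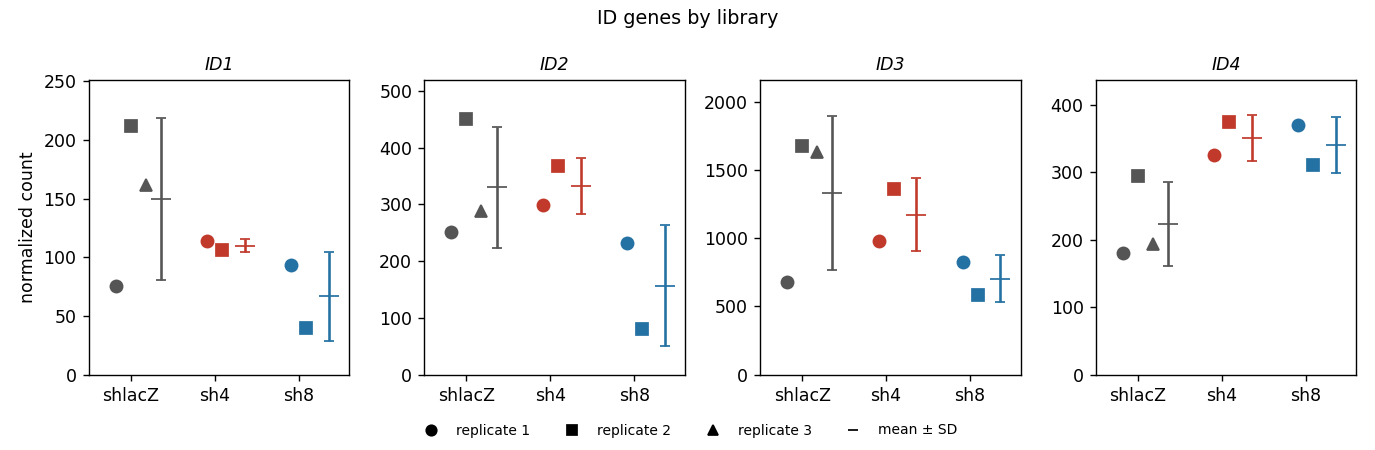
Normalized counts of the ID genes in each library, with the group mean and SD beside the points and the marker shape giving the replicate number. ID1, ID2 and ID3 have their lowest value in sh8 replicate 2, shlacZ replicate 1 lies within the sh8 range for ID1 and ID3, and all 4 knockdown libraries of ID4 lie above its highest control of 295.

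Library shlacZ replicate 1 was the lowest control for all 9 genes, and 44.9% of the 15420 genes were lowest there. Leaving it out, 3 of the 9 genes passed for sh8 (BMPR2, ID1 and ID3) in place of 1, at adjusted p alone. Over all genes the calls for sh8, which also need an absolute log2 fold change over 1, went from 178 to 411. The share of all genes past adjusted p alone without this library is not given here, so these counts are not shares of each other.

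Summed over the 4 genes and divided by exon length, ID transcripts stood at 675, 1571 and 1402 normalized counts per kilobase in shlacZ, 968 and 1258 in sh4, and 830 and 537 in sh8. ID3 made up 66.7% to 77.8% of this sum in every library. The share of ID4 was 6.91%, 4.85% and 3.57% in shlacZ, 8.70% and 7.71% in sh4, and 11.5% and 15.0% in sh8, with no overlap between the 3 groups. For the balance with their binding partners, the sum of ID transcripts was set against that of the E proteins TCF3, TCF4 and TCF12. The ratio was 1.06, 2.21 and 2.00 in shlacZ, 1.67 and 2.26 in sh4, and 1.35 and 0.786 in sh8. Groups overlapped in this ratio. Its level depends on the exon lengths used, which merge all annotated exons, at 29166 bases for TCF4, 6368 for TCF3 and 9446 for TCF12. None of the 3 E protein genes passed limma's adjusted test in any comparison (at an unadjusted p under 0.05, TCF3 for sh4, and by limma-voom 0). By that unadjusted p, TCF3 ranked 4044 of 15420 genes for sh4.

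**Figure D3:**
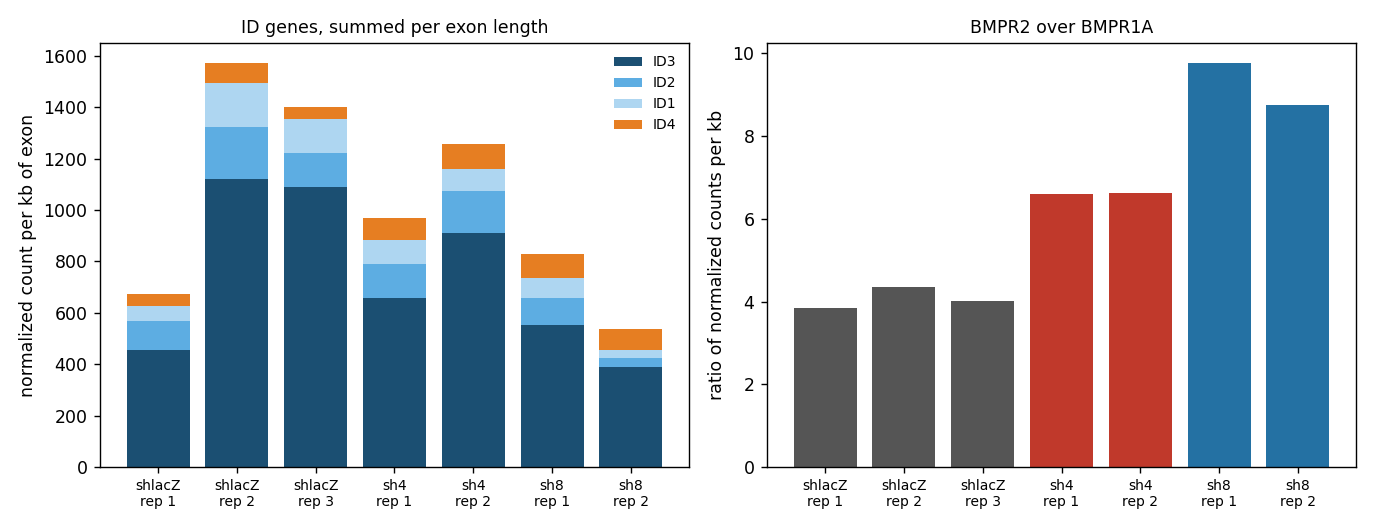
Left, the ID transcripts of each library in normalized counts per kilobase of exon, stacked by gene. Right, the ratio of BMPR2 to BMPR1A per kilobase. The summed ID level is lowest in sh8 replicate 2 at 537, the ID4 segment takes 3.57% to 6.91% of the bar in shlacZ and 7.71% to 15.0% in knockdown, and the receptor ratio is at most 4.35 in shlacZ and at least 8.75 in sh8.

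Ordered by mean level per kilobase in shlacZ, ID3 (888 ± 376, SD) and BMPR2 (459 ± 82.0) were highest, followed by SMAD5 (219 ± 7.18), ID2 (149 ± 48.2), ID1 (121 ± 55.9), BMPR1A (113 ± 16.7), ID4 (57.7 ± 16.2), SMAD6 (31.6 ± 6.74) and SMAD1 (24.0 ± 4.26). The ranges over libraries overlapped for ID3 and BMPR2, for ID2, ID1 and BMPR1A, for ID1 and ID4, and for SMAD6 and SMAD1. Under sh8 BMPR2 was first at 1128 ± 38.5 per kilobase and ID3 second at 470.4 ± 117, with no overlap, and the mean of ID4 (88.0 ± 10.8) was above those of ID2 (70.7 ± 48.2), which overlapped it, and ID1 (54.2 ± 30.7). Under sh4 BMPR2 (807 ± 98.0) and ID3 (783 ± 178) overlapped.

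Antisense transcripts overlap some of these genes, and whether reads were counted by strand is not given in the sources used here, so reads of such pairs may be mixed. ID2-AS1 stood between 23.7 and 75.7 normalized counts, and SMAD5-AS1 between 0 and 3.64. LNC-LBCS, which overlaps ID4, stood at 35.1, 42.9 and 42.6 in shlacZ, 54.2 and 70.9 under sh4 and 27.7 and 24.6 under sh8. It was higher under sh4 than under sh8 (log2 difference 1.22, limma adjusted p = 0.0484), whereas ID4 was not (0.04, 95% interval -0.50 to 0.59).

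Each ID gene was set beside the genes of a mean of at least 50 normalized counts whose log2 values, centred on the control mean, lay nearest over the 7 libraries, by root mean square (RMS) difference among 11372 genes. For ID1 the nearest were XAGE1A (RMS difference 0.31), ID3 (0.33) and ID2 (0.34). For ID2 they were INO80C (0.18), ID1 (0.34) and RPS6KL1 (0.35). ID3 lay nearest to ZNF114 (0.24), NRAP (0.25) and YRDC (0.25), and ID4 to ATPAF2 (0.14), ANXA2R-OT1 (0.14) and PPP6R1 (0.15). ID1 thus had both ID2 and ID3 among its 3 nearest genes, and ID3 and ID4 had no ID gene among theirs. The points share their libraries, and this is a description with no test.

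Counted over the 9 genes, 1 passed an adjusted p under 0.05 in pooled knockdown (BMPR2), where 4.61% of all genes tested passed. For sh4, 2 passed (BMPR2 and SMAD6), beside 22.5% of all genes, a share close to that of the genes described here. For sh8, 1 passed (BMPR2), beside 2.92% of all genes. With an added absolute log2 fold change over 1, BMPR2 was called in pooled knockdown (1.99% of all genes) and for sh8 (1.15%), and none of the 9 for sh4 (8.16%). Median log2 fold changes over the 9 genes were -0.14 in pooled knockdown, 0.05 for sh4 and -0.06 for sh8, beside medians of about -0.01 over all genes tested. The libraries of knockdown and control did not overlap for 3 of the 9 genes, ID4 and BMPR2 above and SMAD6 below, and for 21.2% of all genes.

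**Figure D4:**
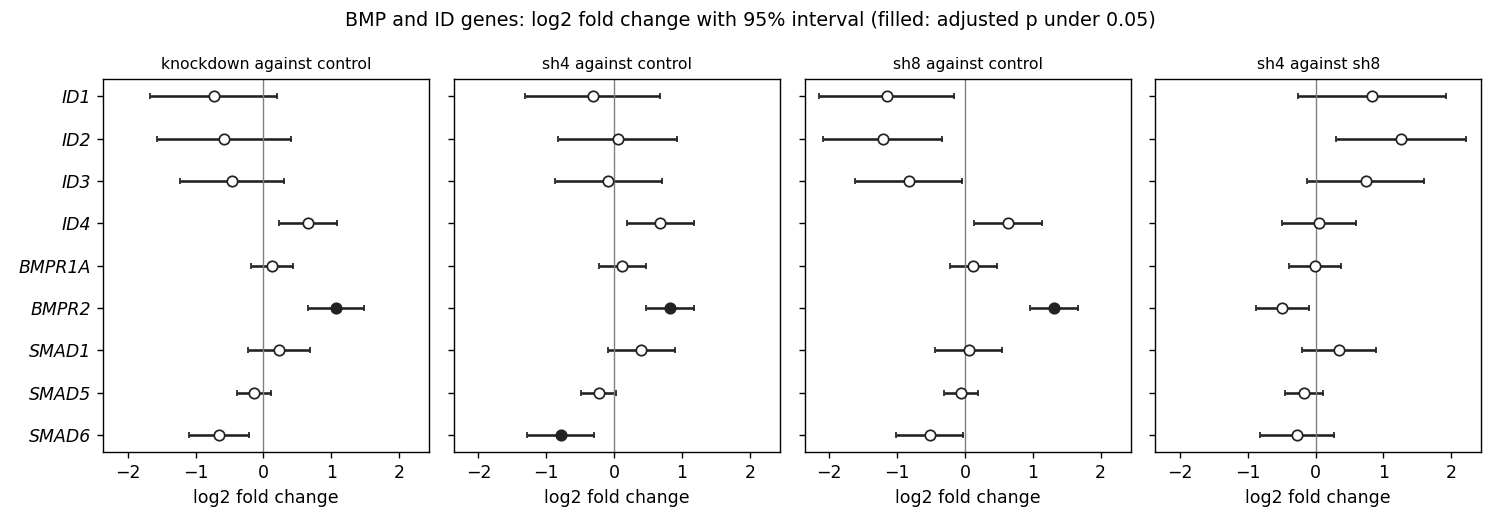
Log2 fold change with its 95% interval for the 9 genes in each comparison, on 1 shared x axis, with filled points at a limma adjusted p under 0.05. BMPR2 is filled in the 3 comparisons with the control and SMAD6 for sh4, and the intervals of ID1, ID2 and ID3 are the widest.

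Set directly against each other, sh4 and sh8 gave no difference among the 9 genes that passed limma's adjusted test (by limma-voom 0). Of all genes, 7% passed this adjusted test and 3.19% with the fold as well. At an unadjusted p under 0.05 there were 2 of the 9. Many genes reached that cut, SMURF2 at a limma p of 0.0442 ranking 3279 of 15420. BMPR2 was lower under sh4 by 0.49 on the log2 scale (95% interval -0.88 to -0.10, adjusted p = 0.131). ID2 was higher under sh4 by 1.26 (0.31 to 2.22, adjusted p = 0.112), ID1 by 0.83 (-0.25 to 1.92) and ID3 by 0.74 (-0.12 to 1.60, adjusted p = 0.301). Both sh4 libraries lay above both sh8 libraries for ID1, ID2, ID3 and SMAD1 and below them for SMAD5 and BMPR2, a separation that 54.2% of all genes also showed. ID3 passed with only these groups in the fit (adjusted p = 0.0461). Without shlacZ replicate 1, 2 genes passed, ID3 (0.74, adjusted p = 0.0306) and BMPR2 (-0.49). The share of all genes past adjusted p without this library is not given here. Without sh8 replicate 1, the ID2 difference was 2.02.

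The rest of the pathway was read from lists of 62 genes, of which 37 had a value and 34 lay over the minimum mean. Among the 34, 4 passed in pooled knockdown (3 higher, 1 lower), 9 for sh4 (5 higher, 4 lower), 4 for sh8 (2 higher, 2 lower) and 3 for sh4 against sh8, beside the 4.61%, 22.5%, 2.92% and 7% of all genes. The median log2 fold change over the 34 genes was 0.01 in pooled knockdown, -0.08 for sh4 and -0.02 for sh8.

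Ligands were scarce in these libraries. Of 13 listed, BMP4, BMP6 and GDF7 had a value, and BMP6 alone lay over the minimum mean. BMP6 stood at 97.0, 110.0 and 71.3 normalized counts in shlacZ, 27.1 and 113 under sh4, and 42.2 and 34.6 under sh8. Both sh8 libraries were below the controls and the sh4 libraries disagreed with each other (log2 fold change for sh8 -1.24, 95% interval -2.34 to -0.13, adjusted p = 0.222). BMP4 lay between 2.09 and 15.7 in all libraries.

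Of 11 further receptors and co-receptors, 8 were tested. RGMB, a BMP co-receptor, rose in pooled knockdown (0.53, limma adjusted p = 0.0407) and for sh4 (0.53, adjusted p = 0.0216), and for sh8 the difference was 0.54 (adjusted p = 0.0691). Its pooled call was lost whichever library was left out, at adjusted p between 0.0513 and 0.152, and its sh4 call without shlacZ replicate 3, sh4 replicate 1 or sh4 replicate 2, at up to 0.172. TGFBR3, a co-receptor that also binds TGF-beta, stood at 1507, 1263 and 1250.1 in shlacZ, 1241 and 1103 under sh4 and 701 and 732 under sh8. It fell with sh8 (-0.90, adjusted p = 0.00822) and differed between the hairpins, while for sh4 the difference was -0.19 (95% interval -0.48 to 0.10). Leaving out sh8 replicate 1 or 2 ended the fall with sh8 (adjusted p = 0.0810 and 0.0819). BMPR1B, ACVR1, ACVR2A, ACVR2B, ENG and NEO1 passed in no comparison.

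Among secreted antagonists, 5 of 15 were tested, and both that passed did so for sh4. TWSG1, a BMP-binding protein, rose with sh4 (0.56, limma adjusted p = 0.0216) and stood at 0.14 for sh8 (adjusted p = 0.649). Its rise no longer passed without shlacZ replicate 2 (adjusted p = 0.0599) or sh4 replicate 2 (0.174). NBL1, a BMP antagonist of the DAN family, stood at 1905, 2761 and 2929 normalized counts in shlacZ, 1624 and 1335 under sh4, and 2316 and 2962 under sh8. It fell with sh4 (-0.76, adjusted p = 0.0207), and for sh8 the difference was 0.07 (95% interval -0.36 to 0.51). Without shlacZ replicate 2 or 3, or either sh4 replicate, its fall no longer passed (adjusted p from 0.0607 to 0.161). CHRD, FST and FSTL3 passed in no comparison, and SOSTDC1 lay under the minimum mean.

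All 12 SMADs and intracellular regulators were tested. SMAD9, the third receptor-activated SMAD, stood at 732, 544 and 509 normalized counts in shlacZ, 294 and 272 under sh4, and 360 and 319 under sh8, with no overlap. It fell in pooled knockdown (-0.92 ± 0.17 SE, limma adjusted p = 0.0208), with sh4 (-1.05, adjusted p = 0.00309) and with sh8 (-0.79, adjusted p = 0.0475). SMURF2, a ubiquitin ligase that acts on SMADs and receptors, stood at 357, 464 and 459 in shlacZ, 901 and 1202 under sh4 and 790 and 753 under sh8. It rose in pooled knockdown (1.08 ± 0.18, adjusted p = 0.0168), with sh4 (1.29, adjusted p = 0.000884) and with sh8 (0.86, adjusted p = 0.0283). SMAD9 therefore fell where SMAD1 and SMAD5, which share its role, did not pass the test. The pooled calls of both were lost without shlacZ replicate 2 (adjusted p = 0.0901 for SMAD9 and 0.0696 for SMURF2) or shlacZ replicate 3 (0.0567 for each), and that of SMAD9 also without sh4 replicate 1 (0.0622). For sh8, SMAD9 no longer passed when any library other than shlacZ replicate 1 was left out (adjusted p from 0.0646 to 0.301), nor by limma-voom (0.0558), with no minimum mean (0.0512), with quantile normalization (0.0613), scaled to total reads (0.0725) or with only the groups compared (0.0815), and SMURF2 without shlacZ replicate 2 or 3 or either sh8 replicate (0.0561 to 0.176). SKI, a repressor of SMAD activity, fell with sh4 (-0.40, adjusted p = 0.0362), a call lost when any library other than shlacZ replicate 1 was left out (adjusted p from 0.0584 to 0.162), with quantile normalization (0.0520), with scaling to total reads (0.0553) and with only the groups compared (0.0586). SMAD4, the common partner SMAD, and SMAD7 and BAMBI, an inhibitory SMAD and a decoy receptor, passed in no comparison.

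Of 8 further targets, 5 were tested, and RUNX2 had the highest fold of all pathway genes that passed. RUNX2, a transcription factor of bone formation that works with BMP-activated SMADs, stood at 130.0, 215 and 178 normalized counts in shlacZ, 770.2 and 867 under sh4, and 799 and 865 under sh8. All knockdown libraries lay far above the controls and the hairpins overlapped. The log2 fold change was 2.26 ± 0.17 (SE) in pooled knockdown (limma adjusted p = 0.000935), 2.25 ± 0.20 for sh4 (adjusted p = 0.00012) and 2.28 ± 0.20 for sh8 (adjusted p = 0.000885), and it held in every alternative tried. ATOH8, a BMP-responsive helix-loop-helix factor, stood at 146, 194 and 225 in shlacZ, 59.9 and 42.5 under sh4, and 116 and 137 under sh8. It fell with sh4 (-1.86 ± 0.25, adjusted p = 0.00101) and stood at -0.55 for sh8 (95% interval -1.12 to 0.01, adjusted p = 0.282). HEY1, a repressor of the same protein class that also answers to Notch, rose with sh4 (0.88, adjusted p = 0.00742) and stood at 0.17 for sh8 (-0.23 to 0.58). The rise of HEY1 no longer passed without sh4 replicate 2 (adjusted p = 0.0807). The pathway targets thus did not follow 1 direction, with RUNX2 up for both hairpins, ATOH8 down and HEY1 up for sh4, and MSX1 and GATA2 in no comparison past the test.

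**Figure D5:**
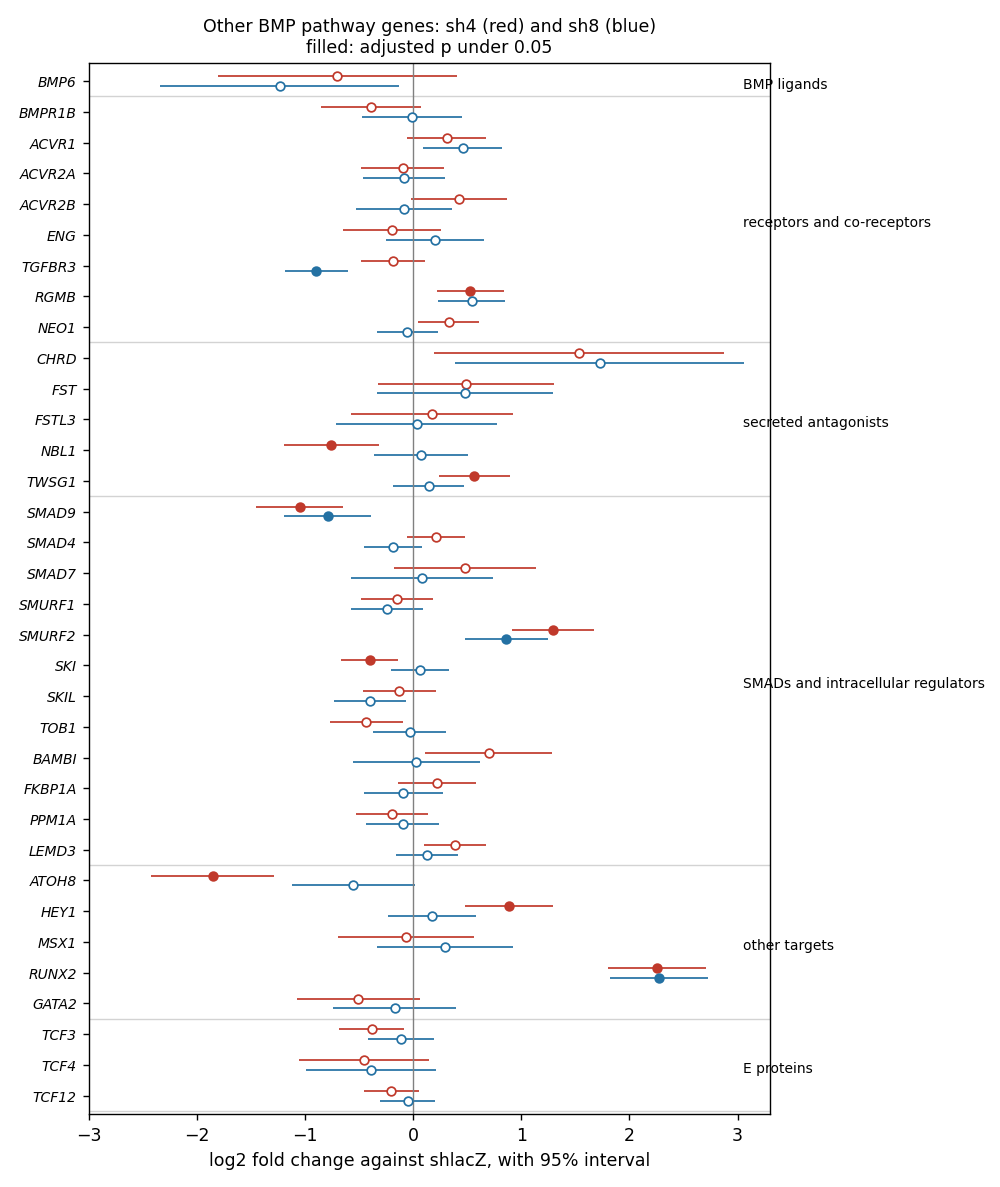
Log2 fold change against shlacZ with its 95% interval for the 34 other pathway genes, grouped by role, for sh4 (red) and sh8 (blue), filled where the limma adjusted p was under 0.05. RUNX2 lies beyond 2 for both hairpins, SMURF2 is filled on the right and SMAD9 on the left for both, and ATOH8 is filled for sh4 only.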

How the data were processed

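RNA of 501Mel cells was depleted of ribosomal RNA and sequenced from stranded libraries. Per the study's methods the authors trimmed reads with Cutadapt, aligned them to hg38 with STAR, quantified genes with Salmon and passed the count matrix to DESeq2. Versions, the annotation release and the strand setting are not given in the sources used here. The authors divided the counts by a size factor per library and deposited the result as 1 table of normalized counts with decimal commas. The deposited values were handled as a score, not as counts, and no negative binomial test was run. Size factors scale away a change shared by most transcripts. All values (100%, within 0.1 of a read) were whole multiples of 1 read. This gave the reads counted in these genes (13337317 to 22855232 per library, not all reads sequenced) and the reads for limma-voom. Counting limits the precision of genes with few reads, and the spread of replicates that of genes with many. The table held 0 columns of other samples and no gene with fewer than 10 reads in all.

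Differences in log2(normalized count + 1) were tested by limma 3.58.1 under R 4.3.3, using its variance trend, over 15420 genes of a mean of at least 10, with Benjamini-Hochberg adjustment over all of them. This scale understates changes of low genes. Pooled knockdown (n = 4) against shlacZ (n = 3), the design of the study, was a fit with 2 levels. A separate model of 3 groups, with 1 common spread, gave the comparisons of single hairpins with control and with each other. A gene passed at an adjusted p under 0.05 and was called where its absolute log2 fold change was also over 1. The check of GRASLND used an exact permutation test over libraries. The procedure was tested on simulated data.

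GENCODE 44 on hg38 gave coordinates and exon lengths for 21281 (99.9%) of the gene identifiers. Promoters came from RefSeq (GRCh38.p14). The genes, pathway and marker lists were chosen from general knowledge with earlier results of these data known. Named were the genes picked, pathway list genes that passed in any comparison, those under the minimum mean by name, GRASLND, and the 3 nearest genes of each ID gene. Other list genes are named with no call or were chosen after their values were seen (BMP6, BMP4, LNC-LBCS, ID2-AS1, SMAD5-AS1 and COL1A1). Alternatives covered the pseudocount, minimum mean, scaling, variance trend, limma-voom, a replicate block, other sets of libraries and leaving out each library.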

Additional observations from a re-analysis of the deposited data

Results flagged for a closer look

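3 of the 34 pathway genes tested differed between sh4 and sh8, beside 7% of all genes. The test was limma's of the difference itself (fit with 3 groups). ATOH8 was lower under sh4 than under sh8 by a log2 difference of -1.3 (adjusted p = 0.0221), with all sh4 values below all sh8 values. NBL1 differed by -0.83 (adjusted p = 0.0466) in the same direction. TGFBR3 differed by 0.71 (adjusted p = 0.0183), being lower under sh8. Each call was lost without sh4 replicate 2, sh8 replicate 1 or sh8 replicate 2, with adjusted p from 0.0838 to 0.279. Those of NBL1 and TGFBR3 were also lost without sh4 replicate 1 (0.102 and 0.116), and that of NBL1 without shlacZ replicate 2 (0.0586). Melanocytic markers also differed between the hairpins, 6 of 8 being lower under sh4, beside 3.33% of all genes. Their part in these differences was not tested. None of 10 values examined for a library far from the other 3 of the 4 knockdown libraries stood out, the widest gap being 0.723 of the range, under Dixon's critical value. These 4 libraries hold both hairpins, and a difference between hairpins widens the range, so this check can miss a deviant replicate. ID2, whose sh8 replicate 2 lay far below sh8 replicate 1, had a gap of 0.528.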

How the results depend on the processing

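Of 26 calls of single genes (each gene that passed, in its comparison, with GRASLND), 6 held in all 17 alternatives (RUNX2 in pooled knockdown, sh4 and sh8, and ATOH8, SMAD9 and SMURF2 for sh4). Over 442 alternatives 345 kept the call, 97 lost it and none changed direction. Below, calls over all genes need an absolute log2 fold change over 1 as well, whereas the 9 BMP and ID genes and the pathway genes are counted at adjusted p alone, so these counts are not shares of each other. Without the variance trend, pooled knockdown gave 108 calls over all genes, 0 of the 9 and 1 pathway gene, sh4 gave 1 of the 9, sh8 gave 57 calls, 0 of the 9 and 1 pathway gene, and sh4 against sh8 gave 0 pathway genes. This setting ended every single-gene call of pooled knockdown and of sh8 except RUNX2, all of sh4 against sh8, and NBL1, RGMB, SKI and SMAD6 for sh4 (adjusted p from 0.0551 to 0.141). The hairpins as a mean in the fit with 3 groups gave 621 calls, and at adjusted p alone 3 of the 9 (BMPR2, ID4 and SMAD6) and 7 pathway genes. For sh4 against sh8, quantile normalization gave 5 pathway genes, and the fit with only these groups gave 1 of the 9 and 6 pathway genes. Leaving out 1 library at a time gave, in calls over all genes, genes of the 9 and pathway genes, 56 to 524, 0 to 1 and 1 to 4 for pooled knockdown, 769 to 1600, 0 to 2 and 5 to 13 for sh4, 51 to 411, 0 to 3 and 1 to 6 for sh8, and 134 to 639, 0 to 2 and 0 to 6 for sh4 against sh8. An arm left with 1 library was assumed to vary like the other groups. The causes were not tested. The replicate block gave 42 calls, 0 of the 9 and 1 pathway gene in pooled knockdown and 1 of the 9 (BMPR2) in sh4 against sh8. With it the pooled BMPR2 rise was 1.16 (adjusted p = 0.0839), and RGMB, SMAD9, SMURF2 and GRASLND in pooled knockdown and SKI for sh4 also did not pass (0.0803 to 0.192). The labels number replicates without saying what a number shares. Deviations of same-numbered libraries correlated between -0.078 (shlacZ with sh8, replicate 2) and 0.337 (shlacZ with sh4, replicate 1). The deviations of the 2 libraries of a hairpin mirror each other. These correlations therefore cannot show whether libraries of the same number shared a batch, which was not tested. Scaling to total reads moved the median of all genes by at most 0.097 on the log2 scale. Of the 9 genes it turned the sign of ID3 for sh4 and, as did quantile normalization, of BMPR1A for sh4 against sh8, both near 0. Depth limits genes near the minimum mean, such as the ligand BMP4.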
